A study of Mus musculus with 3 samples.

Results

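The 4 genes described here are *Nr5a1*, *Nr5a2*, *Nr0b1* and *Nr0b2* of the mouse, and they were chosen by name, with earlier results of these data known. They are 4 of 21938 protein-coding genes in the GENCODE annotation of mm10. All peaks of the vehicle and cAMP lists that touched one of the genes or its flanks of 100 kb were taken, which gave 13 peaks, 5 from the vehicle list (of 5721) and 8 from the cAMP list (of 4025). Ad4BP/SF-1 peaks were listed upstream of its own gene, *Nr5a1*, and at the start site and downstream of *Nr0b2* in both lists. Near *Nr5a2* only the vehicle list held a peak, with a score of 50.5, close to the lowest score listed. No peak was listed near *Nr0b1* in either list. The peak upstream of *Nr5a1* scored 314.86 with vehicle and 59.77 with cAMP, and the peak at the *Nr0b2* start site had 139.77 and 52.96.

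*Nr5a1* encodes Ad4BP/SF-1, the orphan nuclear receptor that directs the formation of the gonads and adrenal cortex and the transcription of steroidogenic genes. *Nr5a2* encodes LRH-1, the close relative of Ad4BP/SF-1 that recognises the same DNA sequence and acts in liver, pancreas, intestine and ovary. *Nr0b1* encodes DAX1 and *Nr0b2* encodes SHP, a pair of receptors without a DNA-binding domain that bind to other nuclear receptors and repress them. Both NR5A receptors are repressed in this way, and promoters of both repressor genes are known targets of NR5A receptors, so the genes have been described as a feedback circuit. In Leydig cells, the androgen-producing cells of the testis, luteinizing hormone acts through cAMP, and in the adult mouse testis Ad4BP/SF-1 is the NR5A receptor on which steroidogenesis chiefly rests.

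Chromatin immunoprecipitation followed by sequencing (ChIP-seq) with an antibody to Ad4BP/SF-1 was performed on cultured Leydig cells of male ICR mice aged 9 weeks, with no genetic change named in the labels. Testes of several animals were processed together, Leydig cells were separated on a Percoll gradient, and cells that did not attach in culture, germ cells among them, were washed away. The purity of the attached cells in these libraries was not examined here. 1 library came from cells given vehicle and 1 from cells given cAMP, and an input library of the same cells was sequenced but is not analysed here. The dose and duration of cAMP for these libraries are not given in the sources used here. The data hold peak positions and scores and no expression values, so that cell type markers could not be examined.

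Each peak has a score from the peak caller MACS. The score was read as 10 times the −log10 of the peak's p-value, which is how MACS usually writes it, but no source used here states this for these lists. Both lists begin at a score near 50, which would be a p-value of 1e-05 and thus stricter than the threshold named in the methods, and their medians were 72.4 (vehicle) and 67.8 (cAMP). A score rises with the depth of a library as well as with the enrichment, and the depth of these libraries is unknown. Since each condition is a single library (n = 1), differences between the lists cannot be tested, and the values are therefore set beside the distribution of all peaks. A rank counts from 1 at the highest score of a list.

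The sequences that carry the results are given here from 5′ to 3′, with the consensus binding sequence of Ad4BP/SF-1 in capitals. The consensus was searched on both strands as CCAAGGCC or CCAAGGTC or TCAAGGCC or TCAAGGTC. It occurred in 80.4% of all vehicle peaks and 77.1% of all cAMP peaks, against 5.73% of 32851 RefSeq promoters, each 300 bases long. The median peak widths were 513 bp (vehicle) and 476 bp (cAMP), so that peaks and promoters are of unlike length in all such comparisons here. The region around the centre of the cAMP peak upstream of *Nr5a1* lies at chr2:38718731-38719018 (mm10, plus strand, 288 bases, opposite to the strand of *Nr5a1*) and holds the only copy of the upstream peaks of either list.
Nr5a1 upstream: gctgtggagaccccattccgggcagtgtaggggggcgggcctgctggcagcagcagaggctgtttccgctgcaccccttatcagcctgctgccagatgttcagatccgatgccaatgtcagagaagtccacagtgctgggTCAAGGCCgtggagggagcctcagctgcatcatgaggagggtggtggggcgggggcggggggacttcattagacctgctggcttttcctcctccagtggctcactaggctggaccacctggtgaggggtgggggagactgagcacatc

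The second set covers the consensus copies of the vehicle peak at the *Nr0b2* start site and of the first peak downstream of the gene (chromosome 4, mm10), each with 30 bases on either side. They lie at chr4:133553013-133553080 (minus strand), chr4:133553577-133553644 (minus strand), chr4:133563227-133563294 (minus strand) and chr4:133563422-133563489 (plus strand).
Nr0b2 start site, upstream copy: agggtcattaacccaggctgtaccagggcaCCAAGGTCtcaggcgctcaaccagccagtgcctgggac
Nr0b2 start site, exon 1 copy: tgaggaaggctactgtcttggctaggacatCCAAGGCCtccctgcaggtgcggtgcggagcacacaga
Nr0b2 first downstream peak, copy A: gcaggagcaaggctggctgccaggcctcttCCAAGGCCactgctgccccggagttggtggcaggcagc
Nr0b2 first downstream peak, copy B: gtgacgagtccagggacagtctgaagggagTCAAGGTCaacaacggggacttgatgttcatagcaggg

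The third set holds the copy in the *Nr5a2* peak at chr1:136973227-136973294 (minus strand), the copy in the cAMP peak in *Psmb7* at chr2:38641912-38641979 (minus strand), the copies in neighbouring peaks of the second downstream site of *Nr0b2* at chr4:133569147-133569214 (plus strand) and chr4:133569495-133569562 (minus strand), and the copy in the *Zdhhc18* intron at chr4:133630674-133630741 (plus strand). They are shown as the copies of the remaining peaks that hold one.
Nr5a2 upstream: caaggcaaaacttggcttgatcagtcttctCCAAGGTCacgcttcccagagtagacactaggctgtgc
Psmb7: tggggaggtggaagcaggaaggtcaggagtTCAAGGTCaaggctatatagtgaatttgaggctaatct
Nr0b2 second downstream peak: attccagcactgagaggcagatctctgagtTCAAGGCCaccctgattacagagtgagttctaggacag
Nr0b2 adjoining peak, cAMP only: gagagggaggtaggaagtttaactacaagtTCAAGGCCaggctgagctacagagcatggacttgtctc
Zdhhc18 intron: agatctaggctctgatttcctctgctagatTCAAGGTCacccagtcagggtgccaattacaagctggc

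The fourth set holds RefSeq promoters (GRCm38.p6, the assembly of mm10) of the repressor genes, each 250 bases before and 50 after the start. That of *Nr0b2* (chr4:133553126-133553425, plus strand) lies wholly within the start site peaks of both lists, and its capitals mark the shorter core CAAGGCC overlapping the E-box CACGTG. That of *Nr0b1* (chrX:86191525-86191824, plus strand) is shown as the promoter without a peak, and its capitals mark AGGTCA, a nuclear receptor recognition sequence searched for after the sequences had been seen.
Nr0b2 promoter: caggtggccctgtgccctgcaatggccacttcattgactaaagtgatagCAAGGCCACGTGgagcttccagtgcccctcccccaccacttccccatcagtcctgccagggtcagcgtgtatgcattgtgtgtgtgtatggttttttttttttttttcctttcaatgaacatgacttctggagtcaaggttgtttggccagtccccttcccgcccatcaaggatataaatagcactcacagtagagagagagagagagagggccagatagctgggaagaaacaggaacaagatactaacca
Nr0b1 promoter: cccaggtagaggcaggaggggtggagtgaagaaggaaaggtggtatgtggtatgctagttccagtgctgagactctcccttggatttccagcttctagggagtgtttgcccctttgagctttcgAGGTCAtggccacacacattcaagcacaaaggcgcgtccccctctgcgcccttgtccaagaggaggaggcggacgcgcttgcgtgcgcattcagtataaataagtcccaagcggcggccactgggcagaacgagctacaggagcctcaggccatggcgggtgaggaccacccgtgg

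To ask whether Ad4BP/SF-1 was bound at its own gene, peaks were sought around *Nr5a1* (ENSMUSG00000026751.14, chr2:38692656-38714542, minus strand), which has start sites at 38714542 and 38712234. The vehicle list held 1 peak, at chr2:38718505-38719912, with a score of 314.86 and rank 87, above 98.5% of its list. The cAMP list held a peak within it, at chr2:38718749-38719083, with a score of 59.77 and rank 2619, above 34.9% of its list. The centre of the vehicle peak lay 4.67 kb upstream of the outermost start site and 6.97 kb upstream of the other.

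No peak of either list overlapped the *Nr5a1* gene body, whose introns hold known enhancers for other tissues. The vehicle peak began 3.96 kb beyond the gene. The intron that the upstream peaks overlapped is intron 1 of *Nr5a1os*, a non-coding gene on the opposite strand, and the vehicle peak also reached its exon 2. A vehicle peak in the gene body was listed for 12.6% of protein-coding genes and a cAMP peak for 9.16%.

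The vehicle peak was broad. It spanned 1408 bp against a median of 513 bp in its list, and 8 of 5721 vehicle peaks were wider. The cAMP peak spanned 335 bp, with 4.6% of cAMP peaks narrower, and all 335 bp lay within the vehicle peak. The vehicle peak reached 244 bp further towards the gene and 829 bp further away from it.

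A single consensus copy, TCAAGGCC at chr2:38718871-38718878, lay 41 bp from the centre of the cAMP peak and 333 bp from that of the vehicle peak. It is 4333 bp upstream of the outermost start site. No copy was found in the parts of the vehicle peak outside the cAMP peak. 4 copies of the GATA sequence (AGATAA or AGATAG or TGATAA or TGATAG) lay in the vehicle peak and 1 in the cAMP peak. The cAMP peak (335 bp) lies within the vehicle peak (1408 bp), so that its copy is among these 4. No CREB site TGACGTCA or its core TGACG was found in either upstream peak.

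**Figure D1:**
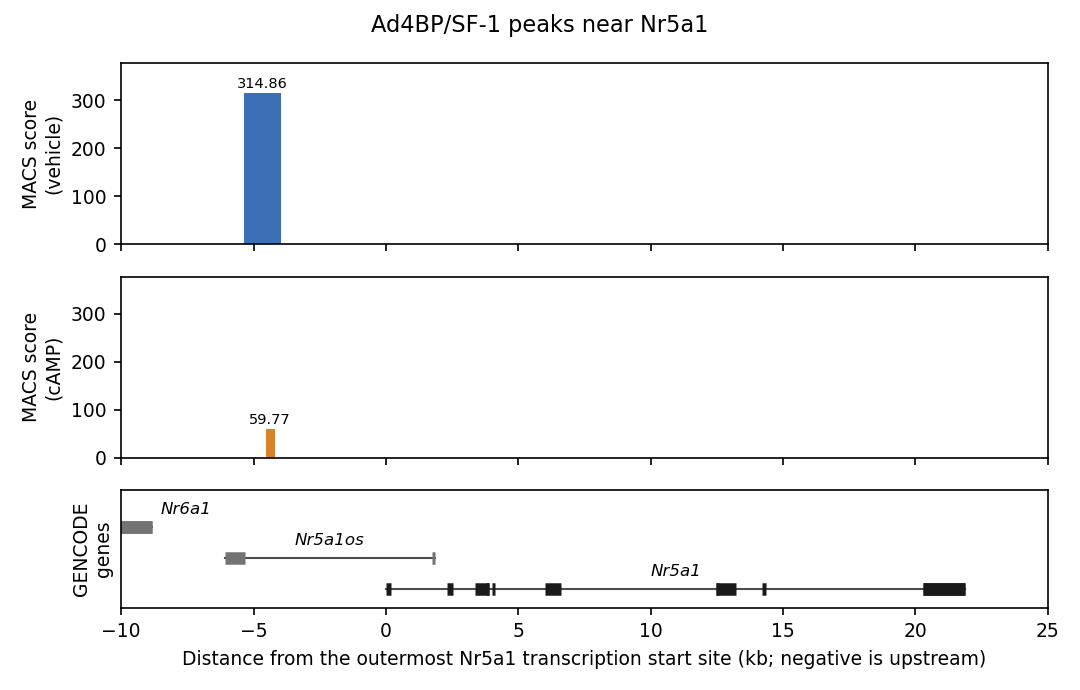
Peaks near *Nr5a1* in the vehicle list (top) and the cAMP list (middle), with bar height as MACS score and bar width as peak width, over GENCODE gene models (bottom, exons as thick bars), against distance in kb from the outermost *Nr5a1* start site in the direction of its transcription. The only peaks in the stretch shown overlap each other upstream of the gene in *Nr5a1os*, with scores of 314.86 and 59.77, and the gene body holds none. The cAMP peak in *Psmb7*, 72.60 kb from the start site, lies outside the stretch shown.

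The cAMP score of the upstream pair was 0.19 of the vehicle score, a difference of 5.27 times. The pair rests on the rule that a counterpart shares at least 1 bp: the shared 335 bp are less than 50% of the vehicle peak and the centres are 292 bp apart, so that it is no pair where 50% of each peak must be shared or the centres must lie within 200 bp. Across all 2171 overlapping pairs of the lists the median ratio was 0.88, with 0.382 at the 5th percentile and 1.89 at the 95th, and 61.1% of pairs had the lower score in the cAMP list. The *Nr5a1* pair was in place 4 from the lowest, with 0.138% of pairs below it. The pairs with lower ratios were nearest to *Sorbs3* (0.14), *Igdcc3* (0.163) and *Myzap* (0.177). In width the vehicle peak was 4.2 times the cAMP peak, and 0 pairs had a lower cAMP/vehicle width ratio.

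For orientation, the *Nr5a1* pair can be set beside the other high-scoring vehicle peaks, with limits chosen after its values had been seen. Of 99 vehicle peaks with scores of at least 300, 97 had a counterpart in the cAMP list and 2 had none. Where a vehicle peak overlapped several cAMP peaks, as the *Sorbs3* peak did with scores of 56.33 and 80.75, the highest was counted here, whereas each overlap counted as a pair of its own in the ratios above. The median cAMP score of the 97 was 200, and 10 of them, the *Nr5a1* peak included, were under 100.

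**Figure D2:**
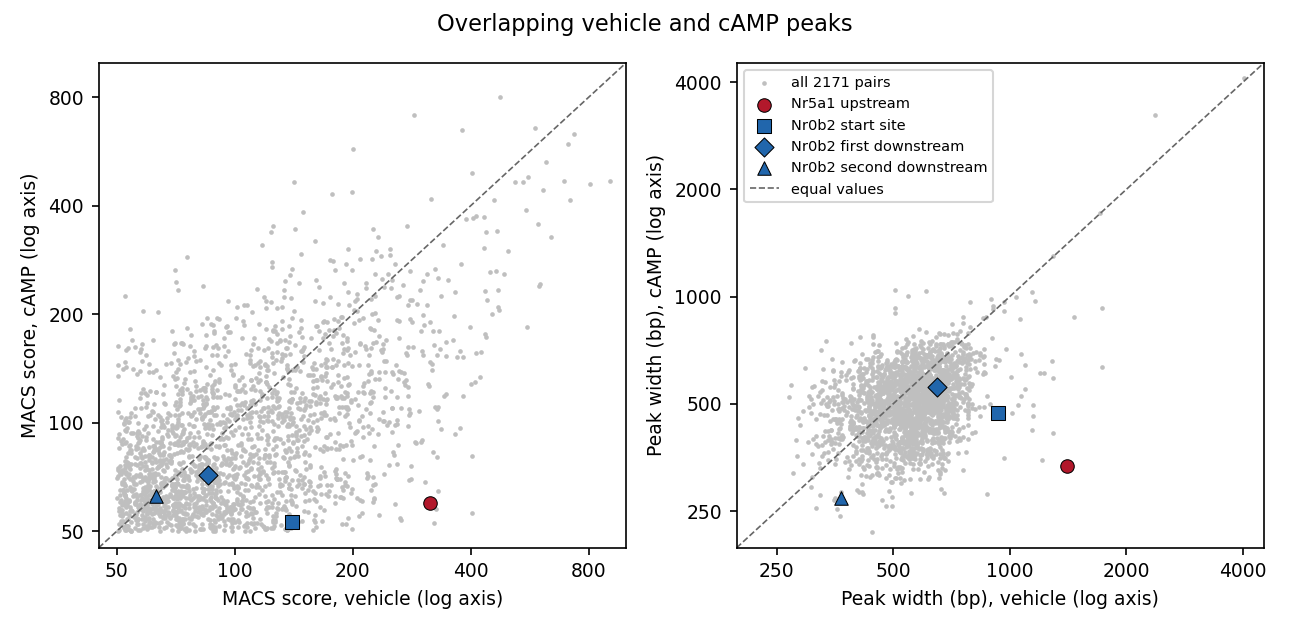
Score (left) and width in bp (right) of the 2171 overlapping pairs, vehicle on the horizontal and cAMP on the vertical axis, both log axes, with the dashed line at equal values and the pairs of *Nr5a1* (circle) and *Nr0b2* (square, diamond, triangle) marked. The *Nr5a1* pair lies far below the line in both panels (314.86 against 59.77, and 1408 bp against 335 bp), and the second downstream pair of *Nr0b2* (triangle) lies at the line in score.

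The cAMP list held another peak in the *Nr5a1* window, at chr2:38641679-38642197, with a score of 64.5 and rank 2239. It lay 50.5 kb past the 3′ end of *Nr5a1*, in exon 3 and intron 3 of *Psmb7*, which encodes a catalytic subunit of the proteasome, and 2149 bp from a *Psmb7* start site. Its consensus copy, TCAAGGTC, lay 8 bp from the centre. No vehicle peak was listed within 76308 bp of it. Outside the 100 kb window the nearest vehicle peak was 278 kb from the gene (score 52.71) and the nearest cAMP peak 239 kb (score 62.27).

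By its highest score in the window, *Nr5a1* was exceeded by 1.58% of protein-coding genes with vehicle and by 28.3% with cAMP, where the highest score was that of the *Psmb7* peak. Over the 7473 genes with a peak in both lists, the genes whose highest scores were most like those of *Nr5a1* were *Pdcd11*, *Calhm2* and *Calhm1*, each at 330.5 in vehicle and 64.68 in cAMP. Their distance from *Nr5a1* was 0.07 in log2 units over the 2 lists. The windows of these neighbouring genes on chromosome 19 share 1 pair of peaks, so that they count as 1 match.

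The second NR5A gene, *Nr5a2* (ENSMUSG00000026398.14, chr1:136842571-136960448, minus strand), had 1 vehicle peak and 0 cAMP peaks. The vehicle peak, at chr1:136973038-136973446, had a score of 50.5 and rank 5627, above 1.4% of its list. It was thus among the lowest of its list, close to the score at which the list begins. It was 409 bp wide, with its centre 12.79 kb upstream of the outermost of 5 start sites. Its copy CCAAGGTC lay 19 bp from the centre.

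The nearest cAMP peak was 326497 bp from the *Nr5a2* peak. The nearest peaks outside the window were 196 kb from the gene in both lists, with scores of 63.13 in vehicle and 52.59 in cAMP. *Nr5a2* is 117878 bp long, against 21887 bp for *Nr5a1*, and no peak lay in its body or its 2 RefSeq promoters. A vehicle score of 50.5 leaves little room above the lowest score listed, so that the absence of a cAMP peak cannot be told apart from a small change in signal or depth.

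Of the repressor genes, *Nr0b1* (ENSMUSG00000025056.4, chrX:86191764-86195947, plus strand) had no peak in either list. None lay within 500 kb of the gene. The nearest vehicle peak was 1114 kb away (score 58.11) and the nearest cAMP peak 7630 kb (score 63.0). The promoter printed above held none of the 4 consensus sequences and no CAAGGCC or CAAGGTC.

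Peaks were sparse over the whole X chromosome. It held 34 vehicle and 23 cAMP peaks, or 0.199 and 0.134 per Mb, against 2.1 and 1.48 per Mb over the genome. A peak in the gene window was listed for 9.92% of the 948 protein-coding genes of the X chromosome with vehicle and for 7.38% with cAMP. Over all protein-coding genes these shares were 49.4% and 41.3%. The cells came from males, which carry a single X chromosome, and the part of copy number in these densities was not tested. Of the *Nr0b1* window, 38.6% was soft-masked repeat sequence, against 23.4% to 34.2% of the other 3 windows. A gene without a peak is therefore the usual case on this chromosome, and no signal below the lowest listed scores can be seen in these lists.

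The other repressor gene, *Nr0b2* (ENSMUSG00000037583.2, chr4:133553376-133556536, plus strand), had the most peaks of the 4 genes, 3 with vehicle and 6 with cAMP. At least 3 vehicle peaks were listed in the window of 14% of protein-coding genes and at least 6 cAMP peaks in that of 0.346%. Within 500 kb of the gene the lists held 14 and 13 peaks. All 3 vehicle peaks had a counterpart, and 3 of the 6 cAMP peaks had one.

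The start site peak of the vehicle list, at chr4:133552691-133553623, had a score of 139.77 and rank 726, above 87.3% of its list. It was 933 bp wide, with its centre 0.22 kb upstream of the start site, and overlapped exon 1. Its cAMP counterpart, at chr4:133553106-133553576, had a score of 52.96 and rank 3490, above 13.2% of its list, and was 471 bp wide. These were the only peaks in the body of any of the 4 genes.

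The narrower cAMP peak left out both consensus copies of the vehicle peak. These are CCAAGGTC, 329 bp upstream of the start site, and CCAAGGCC, 235 bp downstream of it in exon 1, both printed above. The shared 471 bp held the 7-base core CAAGGCC joined to the E-box CACGTG, and the vehicle peak also held an AP-1 site, TGAGTCA. The E-box was found in 7.88% of vehicle peaks, 7.01% of cAMP peaks and 7.15% of promoters, and the AP-1 site (TGACTCA or TGAGTCA) in 16.1%, 17.3% and 5.2%.

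The first downstream site lay 10.03 kb from the start site, past the end of the gene. The vehicle peak, at chr4:133563077-133563726, had a score of 85.56 and rank 2041, and the cAMP peak, at chr4:133563147-133563703, had a score of 71.47 and rank 1797. The vehicle peak stood above 64.3% of its list and the cAMP peak above 55.3% of its own. Both held the same CCAAGGCC and TCAAGGTC, and the TCAAGGTC lay 31 bp from the centre of the cAMP peak.

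The second downstream site lay 15.75 kb from the start site and 5616 bp from that of *Gpatch3*, the nearest. The vehicle peak, at chr4:133568947-133569312, had a score of 63.06, and the cAMP peak, at chr4:133569035-133569306, had 62.5. Both held 1 TCAAGGCC, and 86.3% of the vehicle peak was soft-masked. A cAMP peak without counterpart, at chr4:133569322-133569766 with a score of 56.29, began 10 bp past the end of that vehicle peak and held another TCAAGGCC.

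The cAMP/vehicle score ratios of these 3 sites were 0.379, 0.835 and 0.991, so that the sites of 1 locus differed. Of all pairs, 4.7%, 45.3% and 60.3% had a lower ratio than each of them. The order of the sites was also different. In the vehicle list the start site scored highest and the second downstream site lowest, whereas in the cAMP list the first downstream site scored highest and the start site lowest. In width the start site pair was also low, with 1.34% of pairs below it.

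The remaining cAMP peaks of the *Nr0b2* window lay in other genes. One, at chr4:133589180-133589600 with a score of 59.6, lay in intron 3 of *Gpn2*, a GTPase gene, 36.01 kb downstream of the *Nr0b2* start site, and held no consensus. The other, at chr4:133630498-133630926 with a score of 58.47, lay in intron 1 of *Zdhhc18*, a palmitoyltransferase gene, 77.34 kb downstream, with TCAAGGTC 4 bp from its centre. The nearest vehicle peaks were 19868 and 61186 bp away.

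**Figure D3:**
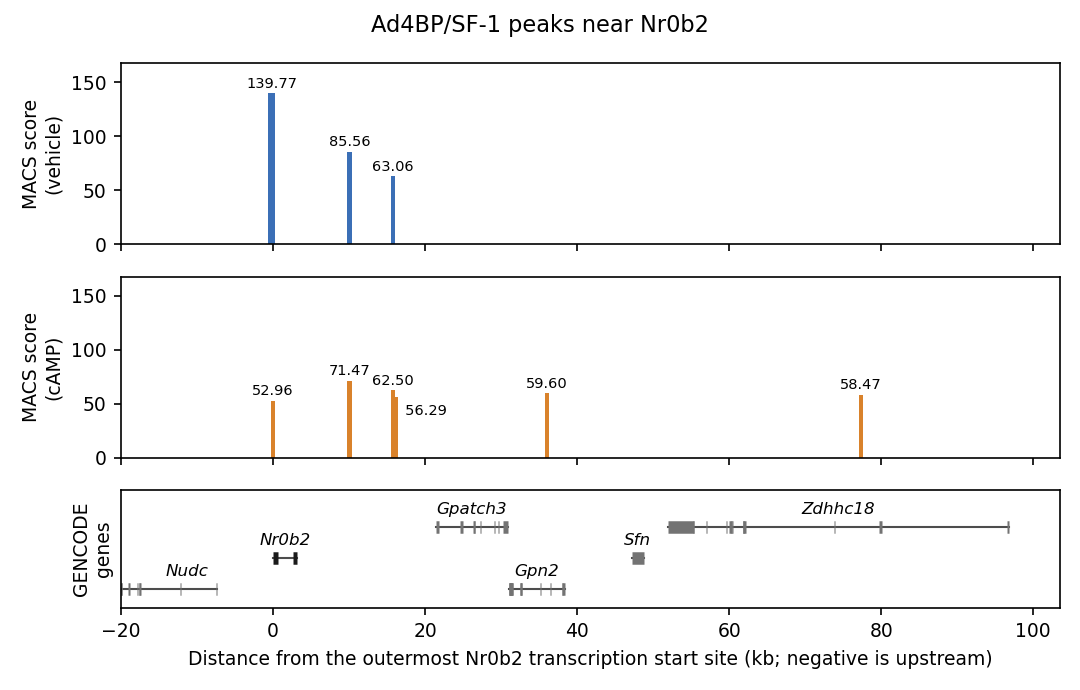
Peaks near *Nr0b2* in the vehicle list (top) and the cAMP list (middle), with bar height as MACS score, over GENCODE gene models (bottom), against distance in kb from the *Nr0b2* start site (bars are widened to a minimum width to be visible). The vehicle scores descend from the start site (139.77, 85.56, 63.06), whereas all 6 cAMP scores lie between 52.96 and 71.47, and the 2 cAMP peaks farthest downstream, in *Gpn2* and *Zdhhc18*, have no vehicle peak at the same place. The rest of the 100 kb window upstream of the gene held no peak.

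By its highest score, *Nr0b2* was exceeded by 12.3% of protein-coding genes with vehicle and 23.9% with cAMP. These highest scores belong to different sites, the start site with vehicle (139.77) and the first downstream site with cAMP (71.47). The genes whose highest scores were most like those of *Nr0b2*, again over 7473 genes and 2 lists, were *Mlxipl* (142.72 and 71.62, distance 0.03) and *Trim66* and *Rpl27a* (138.71 and 73.54, distance 0.04). *Trim66* and *Rpl27a* share their highest peaks.

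Across the 4 genes, 3 had a vehicle peak, 2 had a cAMP peak and 2 (*Nr5a1* and *Nr0b2*) had peaks in both lists. Of all protein-coding genes 49.4% and 41.3% had one, and 34.1% had peaks in both lists. These counts over 4 genes are near the background. A counterpart was found for 4 of 5 vehicle peaks and 4 of 8 cAMP peaks, against 37.9% and 53.8% of all peaks.

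The scores of the 5 vehicle peaks ranged from 50.5 to 314.86, and 3 of them were above the median of their list. The scores of the 8 cAMP peaks ranged only from 52.96 to 71.47, and 1 was above the median, the first downstream peak of *Nr0b2*. All 4 pairs had the lower score in the cAMP list, as had 61.1% of pairs in general. The nearest protein-coding start site was that of the same gene for 4 of 5 vehicle peaks and 3 of 8 cAMP peaks.

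**Figure D4:**
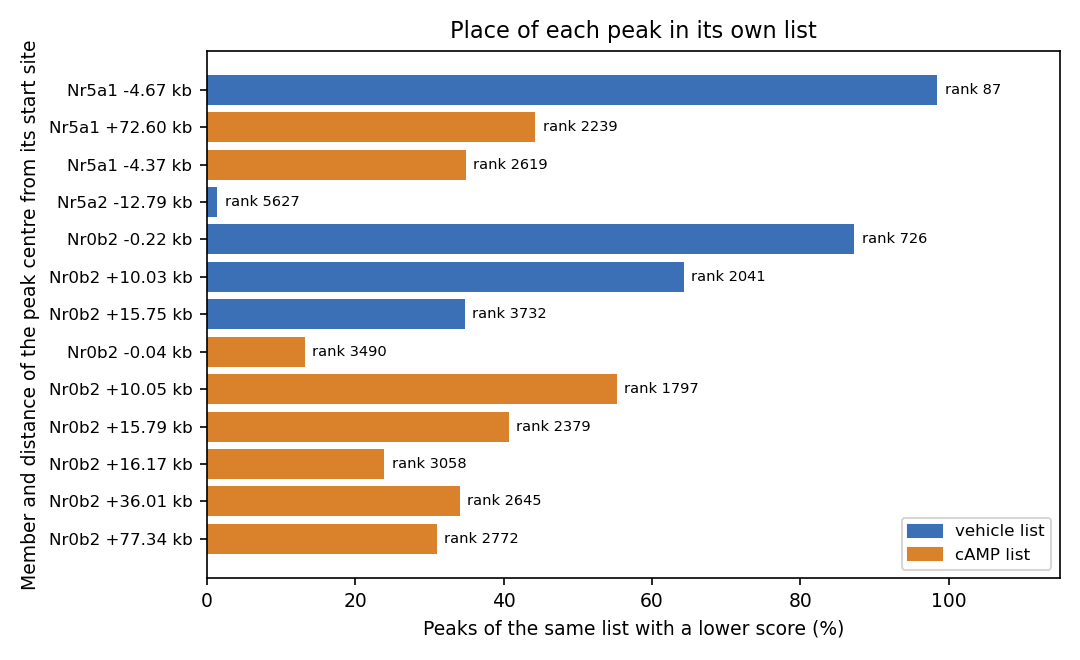
Percentage of peaks in the same list with a lower score, for each of the 13 peaks (vehicle blue, cAMP orange), labelled with the gene and the distance of the peak centre from its outermost start site in kb, and with the rank in the list. The vehicle peaks upstream of *Nr5a1* (98.5%) and at the *Nr0b2* start site (87.3%) stand highest, their cAMP counterparts are at 34.9% and 13.2%, and the *Nr5a2* peak is at 1.4%.

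The consensus was present in 5 of 5 vehicle peaks and 6 of 8 cAMP peaks, beside 80.4% and 77.1% of all peaks. The vehicle peaks held 7 copies, 1 of them in soft-masked sequence, and the cAMP peaks also held 7, 3 of them soft-masked. Over all peaks 36.1% of copies (vehicle) and 40.9% (cAMP) were soft-masked. The masked copies were those of *Psmb7* and of both peaks at the second downstream site of *Nr0b2*, whereas the copies upstream of *Nr5a1* and *Nr5a2*, at the *Nr0b2* start site and at its first downstream site were in unmasked sequence.

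The other sequences given here were each found in fewer of these peaks than the consensus was. AGGTCA, which overlaps the consensus where TCAAGGTC or CCAAGGTC is followed by A, was found in 2 of 5 vehicle and 5 of 8 cAMP peaks, against 71.5% and 69.2% of all peaks and 16.3% of promoters. The GATA sequence was found in 3 of 5 and 3 of 8, against 58.7% and 56.2% of all peaks and 29.8% of promoters. TGACG, the core of the CREB site, was in 2 of 5 and 2 of 8, against 18.7% and 17.9% of all peaks and 20.8% of promoters. TGACGTCA was in none of the 13, and in 0.699% of vehicle peaks, 0.77% of cAMP peaks and 1.79% of promoters. AAAGGTCA was also in none, and in 3.92%, 3.53% and 1.51%.

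The circuit extends to the factors that control *Nr5a1* and to the cofactors of its product. Of 16 genes known as regulators of *Nr5a1* transcription, 11 had a vehicle peak in the gene window, 9 a cAMP peak, 8 both and 4 (*Lhx9*, *Six4*, *Emx2* and *Nr2f2*) neither. Over all protein-coding genes the window shares were 49.4%, 41.3% and 34.1% for both lists. In the gene body 1 had a vehicle peak and 3 a cAMP peak, beside 12.6% and 9.16% of all genes. The cAMP peaks in the bodies of *Gata6* (52.09) and *Pknox1* (50.5) were both near the lowest score listed.

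Of 20 cofactors and modifiers of Ad4BP/SF-1, 16 had a vehicle peak in the window, 12 a cAMP peak, 11 both and 3 neither, *Ddx20* and *Ppargc1a* among them, beside the same window shares of 49.4%, 41.3% and 34.1% over all genes. In the gene body 10 had a vehicle peak and 5 a cAMP peak. The gene body shares over all genes were 12.6% and 9.16%. The median length of the 20 genes was 82.4 kb, against 17.4 kb over all protein-coding genes and 13.9 kb over the 16 regulators, and the part of gene length in these counts was not tested.

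*Ncoa1*, the coactivator SRC-1, had overlapping body peaks with scores of 78.14 in vehicle and 55.11 in cAMP, and *Kat2b*, the acetyltransferase PCAF, had overlapping peaks of 78.06 and 105.42, higher in the cAMP list. For *Pnrc1*, a coactivator of nuclear receptors, the highest peaks scored 99.78 and 106.52 but lay at different places in the gene. The same was true of *Ncor1*, the corepressor NCoR, with 56.87 and 136.73.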

How the data were processed

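Ad4BP/SF-1 ChIP-seq libraries were made from pooled Leydig cells, 1 with vehicle and 1 with cAMP. Per the study's methods, reads were mapped to mm10 with Bowtie, only uniquely mapped reads were kept, and peaks were called with MACS in each library. The submitters' processing notes list Bowtie 0.12.8 and FastQC 0.11.5, and whether the input served as control is not given in the sources used here. The deposited lists hold position and a MACS score from the authors' peak caller, read here as 10 times the −log10 p-value. On that reading the lists begin at a stricter value than the methods' threshold, and whether they were filtered further is not given in the sources used here.

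Overlaps with GENCODE genes, ranks and motif counts were computed with Python 3.11.15, pandas 2.3.3 and pysam 0.24.0, and tested on simulated data. A counterpart shared at least 1 bp. Soft-masking was read from the reference genome. The text names the 4 genes, the genes that hold or lie nearest to their peaks, members of 2 gene lists with body peaks in both lists, and the 3 genes most alike in score. Genes in these lists without a window peak, *Gata6*, *Pknox1* and the genes nearest the lowest-ratio pairs were named after their values were seen. The genes and lists were chosen with earlier results of these data known. With 1 library per condition there was no test and no replicate error, and read depth is unknown, so that no counting interval can be given. Values of some genes of these lists are not reported here. Windows, score floors, list lengths, overlap rules and motif forms were varied. RefSeq promoters were matched for 3 of the 4 genes.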

Additional observations from a re-analysis of the deposited data

How the results depend on the processing

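With 1 library per condition no result has a replicate check, and the lowest score listed decides which peaks are seen. Of 71 counts under an alternative, 39 stayed within 1.5 times of the reported count. No paired analysis was possible because the result comes from no test. In the gene body alone, each list had 1 peak, at 1 gene, with a counterpart, the consensus being in 1 vehicle and 0 cAMP peaks, and 1 gene had peaks in both lists. With 10 kb on either side, peaks numbered 3 in each list, with the consensus in 3 vehicle and 2 cAMP peaks. With 50 kb, no count moved beyond that range. With scores of at least 75, 3 vehicle peaks remained, all 3 with the consensus, and with at least 100, 2 remained, both with it (2). At either floor 0 cAMP peaks, 0 genes with a cAMP peak, 0 genes with peaks in both lists, 0 cAMP peaks with the consensus and 0 counterparts in either direction were left, since all cAMP scores were under 75. With only peaks nearest to the gene's own start site, 3 cAMP peaks were left. With lists of equal length, *Nr5a2* lost its peak, and no count left the range. Requiring 50% of each peak to be shared, or centres within 200 bp, left 3 pairs, and the pair lost under both was that of *Nr5a1*. The consensus in the central 200 bp was found in 3 vehicle peaks, and AGGTCA in place of the consensus, chosen after seeing the data, in 2.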
